A study of Homo sapiens with 24 samples.

Results

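Oxidative phosphorylation is carried out by 5 protein complexes of the inner mitochondrial membrane, and the transcripts of their subunits were examined in 3 lines of ER+ breast cancer cells, namely HCC1500, MDA-MB-175 and ZR-75-30. Members were the rows of the deposited table whose symbol starts with MT-ND, MT-CO, MT-CYB or MT-ATP, with NDUFA, NDUFB, NDUFC, NDUFS or NDUFV and a digit, with UQCR, with COX and a digit from 4 to 8, or with ATP5, or is SDHA, SDHB, SDHC or SDHD. The rule took 100 of 18889 rows and used no measured value. They were 13 subunits encoded in the mitochondrial genome, 74 nuclear-encoded subunits and 13 other rows, which are pseudogenes, readthrough genes, an antisense gene, second IDs of a subunit, tissue isoforms and proteins that only share a symbol stem. All 87 subunits passed the filter on low values in every line. The lines were grown for 48 hours without serum in medium with 5 mM glucose (LG, the control) or 25 mM glucose (HG, modelling hyperglycemia), after conditioning in low glucose, with 4 cultures in each of the 6 groups and 24 RNA-Seq profiles in all. Each line descends from a single tumor, and the labels name no engineered allele.

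Complex I takes electrons from NADH, complex II takes them from succinate as part of the tricarboxylic acid cycle, complex III passes them to cytochrome c, and complex IV passes them to oxygen. The protons pumped along the way drive complex V, the ATP synthase. Complex II is built from nuclear genes alone, while the other complexes combine nuclear-encoded subunits, imported from the cytosol, with subunits made on mitochondrial ribosomes. The mitochondrial genes are transcribed as long precursors from both strands and cut into single messages, whereas each nuclear gene has a promoter of its own.

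On the mitochondrial genome some members share bases, so their values are not separate measurements. MT-ATP8 and MT-ATP6, the complex V genes, lie on 1 message, and the last 46 bases of MT-ATP8 (chrM:8527-8572, plus strand, GRCh37) are also the first of MT-ATP6, which is 22.2% of the length of MT-ATP8 and 6.8% of that of MT-ATP6. MT-ND4L and MT-ND4 share 7 bases (chrM:10760-10766). The shared bases are shown in capitals between their flanks, because reads over them can be given to either gene. How the authors' counting treated such reads is not given in the sources used here.
MT-ATP8 and MT-ATP6: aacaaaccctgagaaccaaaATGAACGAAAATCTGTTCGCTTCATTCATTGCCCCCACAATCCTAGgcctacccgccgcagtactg
MT-ND4L and MT-ND4: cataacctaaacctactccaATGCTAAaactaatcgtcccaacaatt

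MT-ND6 lies on the minus strand of this genome, opposite the other 12 members, and whether reads were counted by strand is not stated. The table also lists nuclear pseudogene copies of mitochondrial genes, among them MTND1P23, a copy of MT-ND1 sequence that was named after its values were seen. MTND1P23 ran from 584 to 708 normalized read counts in MDA-MB-175 at LG and from 879 to 919 at HG, from 1106 to 1404 and from 952 to 1366 in ZR-75-30, and from 0.431 to 2.97 over the HCC1500 cultures. The share of MT-ND1 reads assigned to such copies was not tested.

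For the nuclear genes, the promoter is the sequence from 250 bases before to 50 after the transcription start in RefSeq (GRCh38.p14), and 61 of the 74 nuclear-encoded subunits matched an entry. Both strands were searched for the core of the NRF1 motif (GCATGCG), an ETS motif read by GABPA (CCGGAAG), an ERR alpha motif (AAGGTCA), a YY1 motif (ATGGCGG) and an SP1 motif (GGGCGG). NRF1, GABPA and ERR alpha are factors known to drive nuclear genes for respiration. The NRF1 core stood in 21.3% of the 61 promoters, 5.87% of the promoters of genes in the table and 4.13% of all 27305 promoters. The shares were 31.1%, 17% and 10.7% for the ETS motif, 13.1%, 2.6% and 3.97% for ERR alpha, 31.1%, 9.05% and 5.72% for YY1, and 60.7%, 66.4% and 44.6% for SP1. Promoters of 3 subunits are shown in full, with motif matches in capitals, for the subunits that later results turn on. ATP5G1 and NDUFS6 were lower at HG in all 3 lines, and SDHB was called higher in 1 line and lower, with overlapping ranges, in another.
ATP5G1 (chr17:48892537-48892836, plus strand): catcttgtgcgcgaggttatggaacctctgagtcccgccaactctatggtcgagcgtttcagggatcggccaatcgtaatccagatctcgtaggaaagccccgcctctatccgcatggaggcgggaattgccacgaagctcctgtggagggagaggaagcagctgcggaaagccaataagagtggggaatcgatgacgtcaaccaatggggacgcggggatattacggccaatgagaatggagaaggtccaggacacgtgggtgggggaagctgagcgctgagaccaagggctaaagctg
NDUFS6 (chr5:1801157-1801456, plus strand): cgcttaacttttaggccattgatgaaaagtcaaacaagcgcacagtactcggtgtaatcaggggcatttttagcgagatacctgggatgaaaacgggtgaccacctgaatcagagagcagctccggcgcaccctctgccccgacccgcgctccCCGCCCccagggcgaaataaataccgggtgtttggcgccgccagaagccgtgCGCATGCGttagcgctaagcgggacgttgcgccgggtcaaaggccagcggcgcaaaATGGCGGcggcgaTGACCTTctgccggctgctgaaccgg
SDHB (chr1:17053983-17054282, minus strand): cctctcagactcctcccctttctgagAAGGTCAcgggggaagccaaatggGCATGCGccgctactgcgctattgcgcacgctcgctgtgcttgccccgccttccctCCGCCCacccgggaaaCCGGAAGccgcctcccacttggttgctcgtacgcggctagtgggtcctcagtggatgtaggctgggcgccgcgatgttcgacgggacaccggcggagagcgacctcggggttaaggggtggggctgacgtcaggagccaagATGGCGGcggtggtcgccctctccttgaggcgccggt

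None of the 5 motifs occurred in the ATP5G1 window. NDUFS6 held the NRF1 core on both strands in overlapping matches, the ERR alpha motif on the opposite strand, the YY1 motif and the SP1 motif on the opposite strand, whereas SDHB held all 5. The ERR alpha motif stood in 25.0% of the 8 matched promoters of subunits lower in all 3 lines, in 15.8% of the 19 of subunits called higher in ZR-75-30 and in 16.7% of the 12 of subunits called lower there. The corresponding shares for the NRF1 core were 25.0%, 15.8% and 16.7%. They were 12.5%, 26.3% and 8.33% for the ETS motif, 25.0%, 31.6% and 33.3% for YY1, and 75.0%, 47.4% and 66.7% for SP1. With so few promoters in a group these shares are descriptions, and a match is not a binding site.

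Recovered reads ran from 9140024 to 17998819 per culture, and 3 reads, taken as the detection floor, were worth 0.95 to 2.29 normalized read counts. Members lay far above it, apart from some of the 13 other rows. In HCC1500 the depths of the LG cultures (13190982 to 17998819 reads) and of the HG cultures (9423472 to 12140912) did not overlap, and the part of depth in the HCC1500 results cannot be told apart from that of glucose. Replicate 3 of HCC1500 at HG (HG3) stood apart: against the mean of the other HG cultures, 57 of the 74 nuclear-encoded subunits were off by over 1 log2 unit, with a median deviation of 1.37, and 23.8% of genes did so. Its deviations had a Spearman rank correlation with transcript length of -0.68 across 12992 genes of this library, which are not independent replicates. In the other cultures, which were kept, this correlation ran from -0.37 (MDA-MB-175 HG1) to 0.31 (MDA-MB-175 HG3). HCC1500 values are therefore given first without HG3 (4 LG and 3 HG cultures) and then with it. ESR1 ran from 255 to 338 in MDA-MB-175, from 533 to 643 in ZR-75-30 and from 3133 to 3962 in HCC1500, while PGR was at most 4.25 in the first 2 lines and at least 624 in HCC1500. Of the markers of other cell types, the fibroblast gene COL1A1 ran from 67.1 to 82.3 in MDA-MB-175, from 78.1 to 116 in ZR-75-30 and from 169 to 256 among HCC1500 cultures, and the endothelial gene VWF from 32.1 to 55.6 in MDA-MB-175, with at most 10.7 elsewhere, while COL3A1, PDGFRB and the basal gene TP63 were at most 22.9. The part of these markers in the results was not tested.

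Values are normalized read counts as deposited, and a log2 change is the difference of mean log2(value + 1) between HG and LG, with its standard error (SE). A gene was called higher or lower at a Benjamini-Hochberg adjusted p under 0.05 from limma, adjusted over all genes tested, and all adjusted p-values are limma's. The labels do not say whether replicates were separate cultures in every step, so p-values measure the spread between these samples. Over all genes averaging at least 10, the median log2 change was -0.12 in HCC1500, -0.03 in MDA-MB-175 and -0.0036 in ZR-75-30. Median-of-ratios scaling of the recovered reads moved the HCC1500 median by over 0.1, to -0.0021. Shares of all genes include weak genes, which members are not. For ranges without overlap, calls compared over lines and differences between lines, no share was computed for genes averaging at least 100 normalized read counts. Under alternative settings, shares of all genes were computed only for HG against LG in HCC1500, with median-of-ratios scaling and with HG3. Counts of members under other settings therefore do not set them apart from other genes.

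In MDA-MB-175, messages of the mitochondrial genome were higher at HG: 12 of the 13 mitochondria-encoded subunits were called higher, with a median log2 change of 0.38. Across all genes tested in this line 11.9% were called higher and 13.7% lower, and among genes averaging at least 100 normalized read counts the shares were 15.9% and 20.3%. MT-CO1, the catalytic core of complex IV, changed most. Its values were 52723, 45107, 47736 and 49714 at LG and 65668, 75231, 70852 and 71475 at HG. Every HG culture lay above every LG culture, and MT-CO1 rose by 45% (log2 change 0.54 ± 0.058 SE, n = 4 and 4, adjusted p = 4.05e-06). MT-ND2, a membrane subunit of complex I, had 11661, 9645, 10316 and 11338 at LG and 13806, 15812, 15132 and 14528 at HG. Again the groups were apart, with a log2 change of 0.47 ± 0.059 (adjusted p = 2.12e-05). MT-ND3, another membrane subunit of complex I, is the exception. It had 7845, 6920, 6937 and 7340 at LG and 7562, 7667, 7377 and 7047 at HG, overlapping ranges, with a log2 change of 0.03 ± 0.046 (adjusted p = 0.679).

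The other membrane subunits of complex I rose in MDA-MB-175 by 0.45 (MT-ND4), 0.42 (MT-ND1), 0.38 (MT-ND5), 0.37 (MT-ND6) and 0.28 (MT-ND4L) on the log2 scale. MT-CYB, the cytochrome b of complex III, rose by 0.27. MT-CO2 and MT-CO3 of complex IV rose by 0.43 and 0.37, and MT-ATP6 and MT-ATP8 of complex V by 0.38 and 0.28. Among these 10 genes, adjusted p ran from 6.10e-05 for MT-ND4 to 0.00326 for MT-CYB. HG and LG cultures did not overlap for 12 of the 13 members, against 26.6% of all genes tested in this line.

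ZR-75-30 went the other way. Of the 13 mitochondria-encoded subunits 10 were called lower and 0 higher, with a median log2 change of -0.40, where 22.7% of all genes tested were called lower and 23.4% higher (32.6% and 28.8% of genes averaging at least 100). MT-ATP8, an accessory subunit of the proton channel of complex V, fell most, from 3418, 2497, 3208 and 3860 at LG to 1875, 1692, 2042 and 2249 at HG. The ranges were apart, and the fall was 39.5% (log2 change -0.71 ± 0.10 SE, n = 4 and 4, adjusted p = 7.81e-06). MT-ND3 had 5040, 4718, 5084 and 5632 at LG and 2771, 2945, 3501 and 3568 at HG. All HG cultures were below all LG cultures, a log2 change of -0.68 ± 0.069 (adjusted p = 1.67e-07). MT-CYB had 21170, 21071, 23229 and 23076 at LG against 11272, 14117, 15577 and 16415 at HG. It fell by 35.2%, with a log2 change of -0.64 ± 0.082 (adjusted p = 3.46e-06).

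MT-CO1, MT-CO2 and MT-ND1 were not called in ZR-75-30. MT-CO1 had 110840, 111476, 118427 and 116902 at LG and 89740, 113252, 123875 and 125290 at HG, so that the HG cultures lay on both sides of the LG range (log2 change -0.03 ± 0.084, adjusted p = 0.806). The log2 change was -0.13 ± 0.074 for MT-CO2 and -0.19 ± 0.083 for MT-ND1 (adjusted p = 0.153 and 0.0663). MT-CO3, the remaining complex IV member, fell by 0.53 on the log2 scale, MT-ND4L by 0.51, MT-ATP6 by 0.44, MT-ND5 by 0.40, MT-ND6 by 0.37, MT-ND2 by 0.36 and MT-ND4 by 0.27. The ranges of 9 members did not overlap, against 42% of all genes tested in this line. HG1 had the lowest value of the 4 HG cultures for most of these genes, with a median deviation of -0.39 log2 units from the other HG cultures. Without HG1, 10 members were again called lower and 0 higher, and the median log2 change was -0.29.

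In HCC1500 the mitochondrial messages moved in both directions. Without HG3, 7 of the 13 were called higher and 4 lower, with a median log2 change of 0.19 (0.090 without HG4, with 6 higher and 4 lower), and the split followed the complexes: 5 of the 7 complex I members and both complex V members were higher, and MT-CYB and all 3 complex IV members were lower. In this line 20.6% of all genes tested were called higher and 37.0% lower (28.3% and 46.1% of genes averaging at least 100). MT-ND2 rose most. It had 15587, 14336, 14046 and 13914 at LG and 23553, 23496 and 26377 in HG1, HG2 and HG4. The ranges were far apart, and the rise was 69.1% (log2 change 0.76 ± 0.04 SE, n = 4 and 3, adjusted p = 2.19e-11). MT-ND1, which precedes MT-ND2 on the genome, had 10237, 9787, 9139 and 9588 at LG and 13649, 13294 and 15474 at HG, a log2 change of 0.54 ± 0.043 (adjusted p = 4.77e-09). MT-ND3 had 2332, 2082, 2134 and 2024 at LG and 2754, 2858 and 3221 at HG. It too rose with no overlap, by 0.46 ± 0.048 (adjusted p = 2.13e-07). The smaller rises were 0.30 for MT-ND4L, 0.28 for MT-ND5, 0.22 for MT-ATP8 and 0.19 for MT-ATP6. MT-ND4 and MT-ND6 were not called (log2 change 0.09 and 0.06, adjusted p = 0.0789 and 0.215).

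MT-CO3 showed the largest fall among the mitochondrial messages of HCC1500, from 32516, 31596, 30068 and 31066 at LG to 26436, 26610 and 28639 at HG. The ranges did not overlap (log2 change -0.20 ± 0.03, adjusted p = 1.47e-05). MT-CO2 fell by 0.17 on the log2 scale, also with no overlap. MT-CO1 had 67644, 63527, 61933 and 62826 at LG and 59435, 57767 and 62461 at HG, which overlap. Its change of -0.10 ± 0.031 and that of MT-CYB, -0.12 ± 0.043, were called (adjusted p = 0.0128 and 0.0261), but both changed sign under median-of-ratios scaling, to 0.028 and 0.0065. That scaling called 9 members higher and 1 lower, against 28.5% and 27.3% of all genes, and CPM called 8 higher and 2 lower. Ranges of 8 members did not overlap, against 57.3% of all genes tested. With HG3 in the fit, only MT-ND1 and MT-ND2 were called, both higher, by 0.72 and 0.91 on the log2 scale, against 7.46% of all genes called higher and 13.0% lower. A single fit over the 3 lines called 5 members higher and 1 lower in HCC1500.

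**Figure D1:**
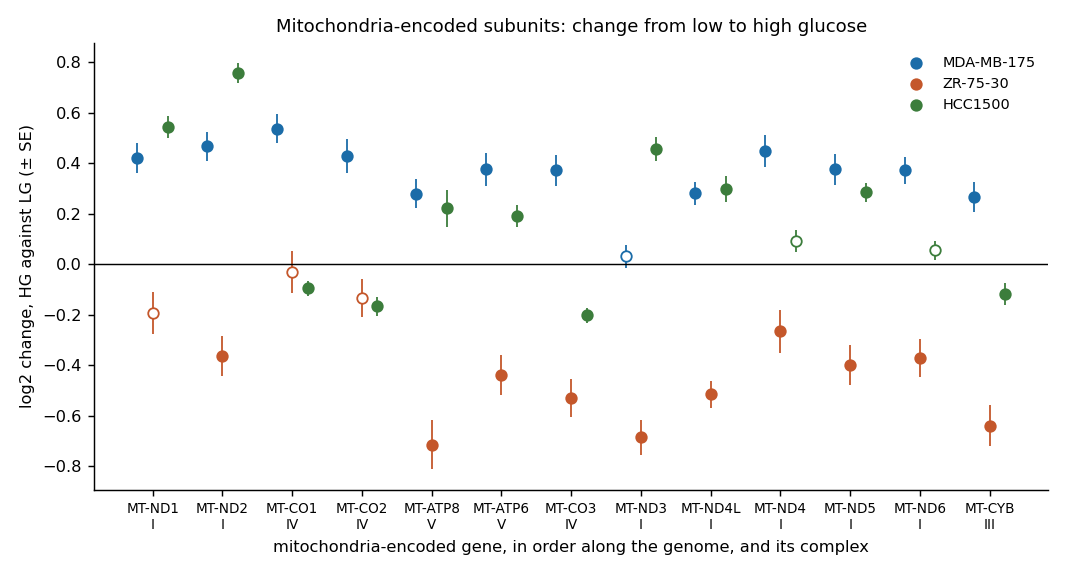
Log2 change of the 13 mitochondria-encoded subunits, HG against LG, in genome order on the horizontal axis, with a marker per line, SE bars and filled markers for called genes (HCC1500 without HG3). MDA-MB-175 lies above 0 from 0.03 (MT-ND3) to 0.54 (MT-CO1), ZR-75-30 lies below 0 from -0.03 (MT-CO1) to -0.71 (MT-ATP8), and HCC1500 is highest at MT-ND2 (0.76) and lowest at MT-CO3 (-0.20).

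Over the 3 lines, 12 of the 13 mitochondria-encoded subunits had calls of opposite sign in a pair of lines, against 13.8% of the genes tested in all lines, and 0 were called in the same direction in all 3. The change differed between lines for all 13 by the F test of the interaction terms, against 48.3% of all genes (adjusted p from 1.39e-08 for MT-ND3 to 1.32e-04 for MT-ND4). The change in ZR-75-30 was lower than in MDA-MB-175 for all 13, by 0.56 (MT-CO2) to 0.99 (MT-ATP8) on the log2 scale, where 25.7% of all genes differed. Between HCC1500 and ZR-75-30, 11 changes were higher in HCC1500, with 1.14 ± 0.10 for MT-ND3 and 1.12 ± 0.12 for MT-ND2 the largest, and MT-CO1 and MT-CO2 were not called (40.4% of all genes differed). Between HCC1500 and MDA-MB-175, MT-ND3 was higher and MT-ND4, MT-ND6, MT-CYB and the 3 complex IV genes were lower in HCC1500, where 32.3% of all genes differed.

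The summed share of all values that fell on the 13 mitochondrial messages does not depend on the scaling of a sample. In MDA-MB-175 it was 3.65% to 4.26% at LG and 4.79% to 5.57% at HG, a mean of 3.99% ± 0.29 against 5.25% ± 0.33 (SD, n = 4 and 4). In ZR-75-30 the mean went from 4.56% ± 0.21 to 3.79% ± 0.58, with 3.01% in HG1 and 3.71% to 4.34% in the other HG cultures. HCC1500 had 4.14% ± 0.20 at LG and 4.43% ± 0.26 in 3 HG cultures, and 5.03% in HG3. The 74 nuclear-encoded subunits together took 0.897% at LG and 0.809% at HG in HCC1500 (1.47% in HG3), 0.94% and 0.841% in MDA-MB-175, and 0.933% and 0.954% in ZR-75-30. The ratio of the mitochondrial to the nuclear sum went from 4.25 to 6.26 in MDA-MB-175, from 4.89 to 3.98 in ZR-75-30 and from 4.62 to 5.48 in HCC1500, where HG3 had 3.42, below every LG culture. In these bulk samples fewer cells of a type and less RNA per cell cannot be told apart, nor can the number of mitochondria and the RNA in each, and the 2 mitochondrial ribosomal RNAs, MT-RNR1 and MT-RNR2, were not analysed here.

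**Figure D2:**
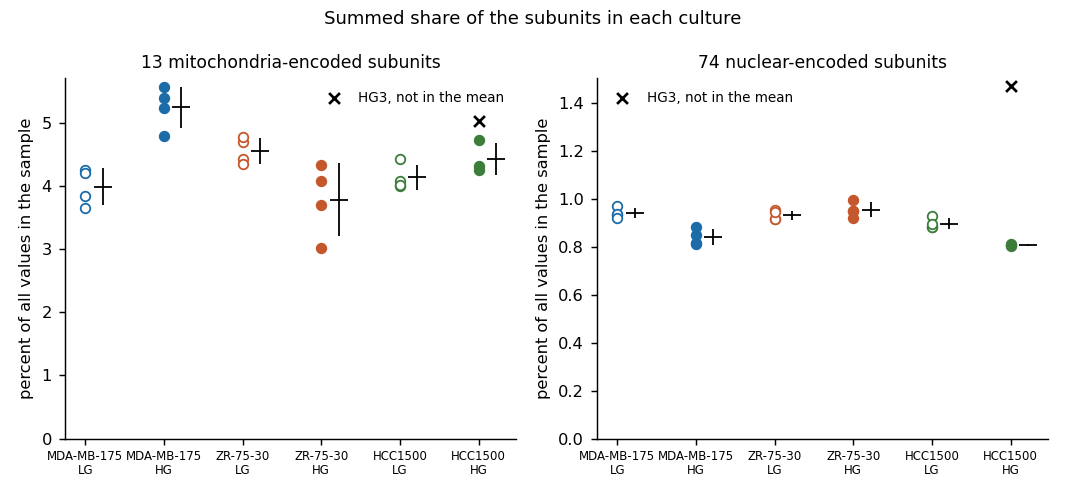
Percent of all normalized read counts in a culture that fell on the 13 mitochondria-encoded (left) and the 74 nuclear-encoded subunits (right), with a point per culture and a bar at the group mean. The MDA-MB-175 HG cultures (4.79% to 5.57%) sit above its LG cultures on the mitochondrial share and below them on the mean nuclear share, and HCC1500 HG3 stands apart on the nuclear share at 1.47%.

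The makeup of the mitochondrial messages is given as shares of their sum, as mean ± SD (n = 4, or 3 at HG in HCC1500). Complex I genes made 42.1% ± 0.62 of the mitochondrial sum in MDA-MB-175 at LG and 41.5% ± 0.47 at HG. Their share in HCC1500 was 33.5% ± 0.24 and 40.3% ± 0.46, while ZR-75-30 had 30.0% ± 0.20 and 28.3% ± 0.26. Complex IV genes made 48.5% ± 0.41 and 41.9% ± 0.82 in HCC1500, 40.8% ± 0.42 and 42.4% ± 0.51 in MDA-MB-175, and 55.1% ± 0.48 and 59.6% ± 0.38 in ZR-75-30. MT-CYB had a lower mean share at HG in each line, from 6.19% ± 0.044 to 5.59% ± 0.079 in MDA-MB-175, from 6.68% ± 0.070 to 5.08% ± 0.099 among ZR-75-30 cultures, and from 8.12% ± 0.15 to 7.10% ± 0.078 among HCC1500 cultures. No test was run on these shares. MT-ND1 and MT-ND2 together made 10.3% ± 0.030 of the sum in HCC1500 at LG and 15.6% ± 0.17 at HG, and 16.3% in HG3, which was above the other HG cultures (15.5% to 15.8%) and on the same side of the LG cultures. In MDA-MB-175 that pair had 6.96% ± 0.065 at LG and 7.12% ± 0.043 at HG, and ZR-75-30 had 9.46% ± 0.12 and 9.10% ± 0.16.

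**Figure D3:**
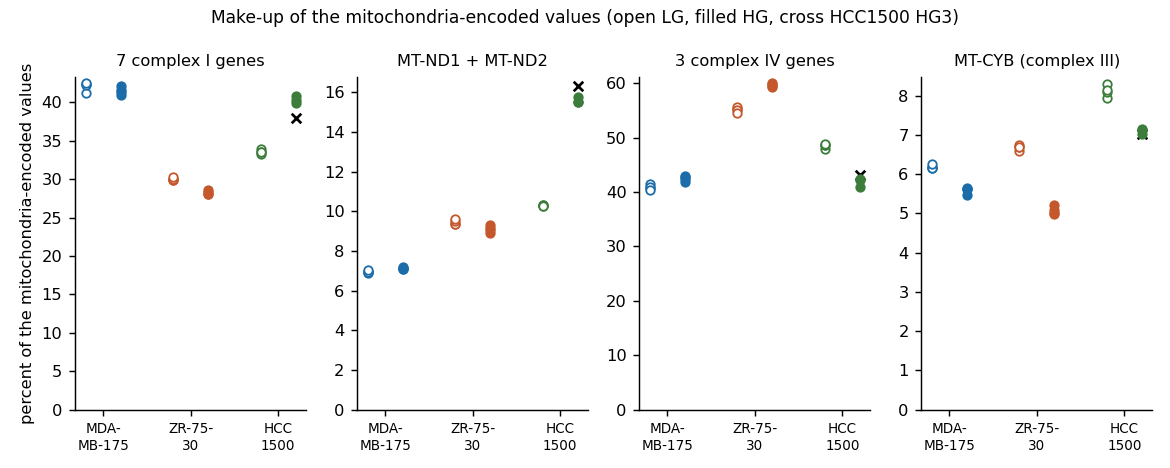
Share of the summed mitochondrial messages taken by complex I genes, by MT-ND1 with MT-ND2, by complex IV genes and by MT-CYB. Each culture is a point, with a cross for HCC1500 HG3, and the values given here are group means without HG3. In HCC1500 complex I goes from 33.5% at LG to 40.3% at HG and complex IV from 48.5% to 41.9%, while in MDA-MB-175 complex I is at 42.1% and 41.5%.

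Among the 74 nuclear-encoded subunits of MDA-MB-175, 34 were called lower at HG and 2 higher, with a median log2 change of -0.15, and 38 were not called. Among all genes of this line averaging at least 100, 20.3% were lower and 15.9% higher. By complex the calls were 17 lower and 1 higher of 36 in complex I, 1 lower of 4 in complex II, 2 lower and 1 higher of 8 in complex III, 4 lower of 11 in complex IV and 10 lower of 15 in complex V. HG and LG cultures did not overlap for 29 of the 74 (39.2%, against 26.6% of all genes tested). Leaving out LG1, HG2 or HG3 of this line brought the calls from 36 to 22, 23 or 23, of which 21 were lower each time. Removing the trend with length and GC content gave 28 lower and 5 higher and a median of -0.092. ATP5G1 encodes the subunit of the rotating c-ring of complex V and fell most. Its values were 413, 408, 367 and 358 at LG and 294, 253, 266 and 292 at HG. The groups were apart, with a fall of 28.6% (log2 change -0.48 ± 0.065 SE, n = 4 and 4, adjusted p = 4.20e-05). NDUFB2, an accessory subunit of the membrane arm of complex I, had 454, 469.7, 442 and 436 at LG and 362, 311, 332 and 338 at HG, again with no overlap (-0.42 ± 0.054, adjusted p = 2.41e-05). COX8A, a small accessory subunit of complex IV, had 546, 549, 488 and 412 at LG and 389, 341, 392 and 375 at HG (log2 change -0.41 ± 0.079). The 2 that rose were NDUFV2, a core subunit of complex I that holds an iron-sulfur cluster, and UQCRC2, a core subunit of complex III. NDUFV2 had 382, 342, 385 and 368 at LG and 469, 452, 411 and 455 at HG with no overlap (log2 change 0.27 ± 0.056, adjusted p = 0.00172), and UQCRC2 changed by 0.15 ± 0.052 with overlapping ranges (adjusted p = 0.0424).

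ZR-75-30 had calls on both sides, 22 higher and 16 lower of 74, with a median log2 change of 0.04 and 30 subunits (40.5%) whose ranges did not overlap. These shares lay near or below those of all genes, of which 42% did not overlap and, among those averaging at least 100, 28.8% were higher and 32.6% lower. The calls were unevenly spread over the complexes, which was not tested. In complex I 6 were higher and 12 lower of 36, whereas 16 were higher and 4 lower of the 38 subunits of complexes II to V: 3 and 1 in complex II, 4 and 1 in complex III, 7 and 1 in complex IV, and 2 and 1 in complex V. Of the 12 lower members of complex I, all were among its 29 accessory subunits, and of the 7 core subunits 1 was called, higher. Leaving out HG1 gave 18 higher and 19 lower, scaling to the reads of all other genes gave 17 and 20, and CPM put the median at -0.0010. UQCRC2 rose most. It had 1199, 1201, 1199 and 1272 at LG and 2130, 1954, 2022 and 1859 at HG. The rise of 63.5% (log2 change 0.71 ± 0.042 SE, n = 4 and 4, adjusted p = 1.84e-10) was far beyond the spread of either group. UQCRB, an accessory subunit of complex III, had 965, 876, 911 and 1022 at LG and 1286, 1261, 1338 and 1258 at HG (0.45 ± 0.046). COX6C, an accessory subunit of complex IV, had 2308, 2104, 2142 and 2463 at LG and 3015, 2833, 3028 and 2805 at HG (0.38 ± 0.047). All 3 were above LG in every HG culture. The largest falls without overlap were NDUFB11 (-0.38 ± 0.074) and NDUFB1 (-0.35 ± 0.062), accessory subunits of complex I, and ATP5G1 (-0.35 ± 0.037), with adjusted p = 3.40e-04, 1.41e-04 and 3.69e-07.

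HCC1500 without HG3 had the most calls, 51 lower and 4 higher of 74, with a median log2 change of -0.23. The ranges of 54 subunits (73%) did not overlap, against 57.3% of all genes tested, weak ones included. Among all genes of this line averaging at least 100, 46.1% were lower. Median-of-ratios scaling gave 38 lower and 10 higher and a median of -0.10, removing the trend with length and GC content gave 35 lower and 8 higher and a median of -0.075, and with HG3 in the fit the median was positive, at 0.071. By complex, 27 of 36 were lower in complex I, 3 of 4 in complex II, 5 of 8 in complex III, 6 of 11 in complex IV and 10 of 15 in complex V. With HG3 in the fit, 1 of the 74 was called, higher. It was COX6C, which also rose most without HG3. COX6C had 1414, 1331, 1308 and 1329 at LG and 2135, 2039 and 2137 at HG. The groups were far apart, with a rise of 56.3% (log2 change 0.64 ± 0.032 SE, n = 4 and 3, adjusted p = 8.56e-12). With HG3, at 5564 normalized read counts, the log2 change was 0.995. The other 3 that rose were ATP5L (0.27 ± 0.048) and ATP5E (0.24 ± 0.036), small subunits of complex V, and COX7B (0.21 ± 0.05) of complex IV. ATP5G1 fell most, from 108, 127, 145 and 130.5 at LG to 73.2, 73.6 and 69.2 at HG, which is 43.5% lower (-0.81 ± 0.092, adjusted p = 5.83e-07). NDUFV1, the core subunit of complex I that oxidises NADH, had 459, 498, 444 and 484 at LG and 275, 287 and 273 at HG (-0.76 ± 0.046, adjusted p = 1.73e-10). NDUFB1 had 189, 184, 192 and 169.7 at LG and 98.5, 114 and 115 at HG (-0.75 ± 0.072). None of these falls was called with HG3, where their log2 changes were -0.39, -0.45 and -0.36.

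**Figure D4:**
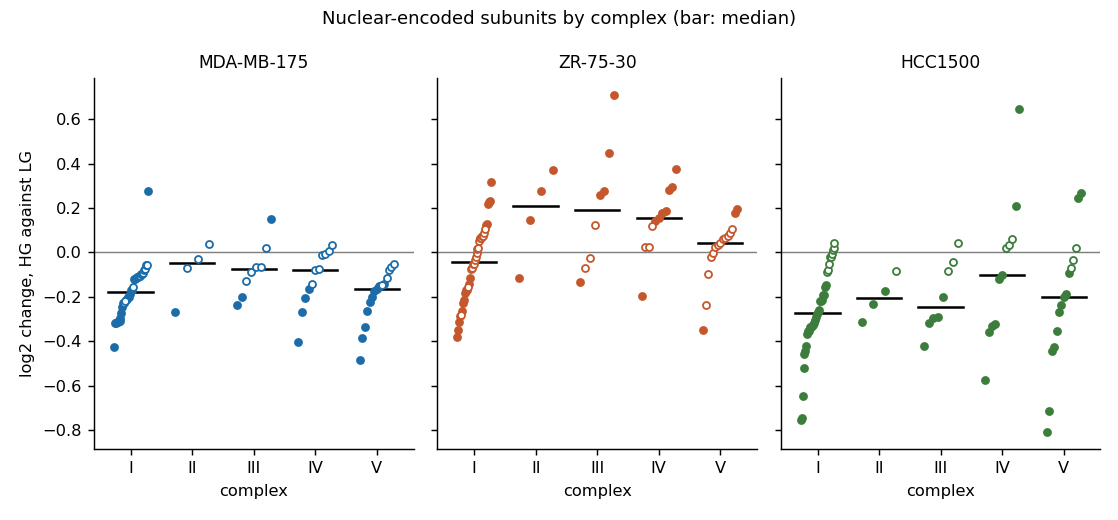
Log2 change, HG against LG, of each of the 74 nuclear-encoded subunits by complex and line, filled where called, with a bar at the median (HCC1500 without HG3). Complex I has a median of -0.27 in HCC1500, -0.18 in MDA-MB-175 and -0.04 in ZR-75-30, and in ZR-75-30 the medians of complexes II, III and IV lie above 0 at 0.21, 0.19 and 0.15.

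Higher in all 3 lines were 0 of the 74 nuclear-encoded subunits. Lower in all 3 were 11 (14.9%), against 6.68% of all genes tested in every line, weak ones included. They were 8 accessory subunits of complex I (NDUFA6, NDUFB1, NDUFB3, NDUFB8, NDUFB9, NDUFB10, NDUFS5 and NDUFS6), SDHC, COX8A and ATP5G1. In all 3 lines ATP5G1 and NDUFB1 fell by at least 0.32 on the log2 scale. NDUFB3, an accessory subunit of complex I, was next, with changes of -0.31 in MDA-MB-175, -0.26 for ZR-75-30 and -0.27 for HCC1500. NDUFS6, whose promoter is shown above, had 281 to 329.9 and 254 to 271 in MDA-MB-175, 441 to 536 and 378 to 408 in ZR-75-30, and 80.1 to 91.3 and 57.7 to 78.9 in HCC1500 at LG and HG, with changes of -0.21, -0.23 and -0.33. With HG3 none of the 11 was called in HCC1500. NDUFS1, NDUFB6, ATP5F1 and ATP5J were not called in any line.

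Calls of opposite sign in a pair of lines were seen for 12 nuclear-encoded subunits (16.2%), a share near the 13.8% of all genes, and 10 of these were higher in ZR-75-30 and lower in HCC1500. NDUFV1 had 715, 720.5, 719.5 and 686 at LG and 847, 840.5, 880.1 and 758 at HG in ZR-75-30, a rise of 0.23 ± 0.046 with no overlap, beside its fall in HCC1500 (interaction adjusted p = 5.35e-09). In MDA-MB-175 its change was -0.07 (adjusted p = 0.435). ATP5G2, another gene for the c-ring subunit of complex V, fell in MDA-MB-175 (-0.33) and HCC1500 (-0.71) and rose in ZR-75-30 (0.19, overlapping ranges), with an interaction adjusted p of 3.22e-08. ATP5G1 and ATP5G2, which encode the same mature protein, moved together in 2 lines and apart in ZR-75-30. NDUFB5, an accessory subunit of complex I, had 610.5, 525, 559 and 599 at LG and 671, 671, 669 and 674 at HG in ZR-75-30, and 759, 742, 772 and 785 at LG and 623, 656 and 636 at HG in HCC1500 (0.23 and -0.26, interaction adjusted p = 4.08e-07). By the F test the change of 47 of the 74 (63.5%) differed between lines, against 48.3% of all genes, weak ones included. With HG3 in the fit, 3 did, and no share of all genes was computed for that fit. Changes in ZR-75-30 were higher than in MDA-MB-175 for 33 and lower for 1 (25.7% of all genes differed), and those in HCC1500 were lower than in ZR-75-30 for 40 and higher for 3 (40.4% of all genes). HCC1500 against MDA-MB-175 gave 5 higher and 14 lower, a smaller share than the 32.3% of all genes.

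**Figure D5:**
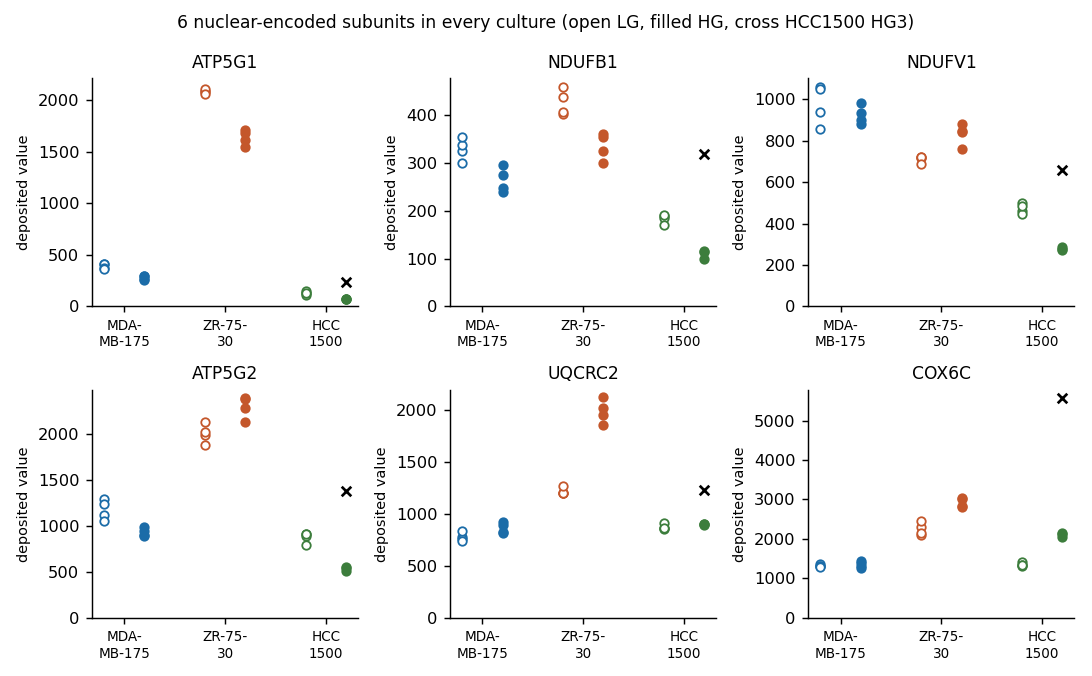
Normalized read counts of ATP5G1, NDUFB1, NDUFV1, ATP5G2, UQCRC2 and COX6C in each of the 24 cultures by line and glucose, with HCC1500 HG3 marked apart. Each gene has its own linear axis. ATP5G1 is lower at HG in each line and runs from 69.2 in HCC1500 at HG to 2108 in ZR-75-30 at LG, and UQCRC2 in ZR-75-30 lies at 1199 to 1272 at LG and at 1859 to 2130 at HG.

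Complex II, succinate dehydrogenase, has no mitochondria-encoded subunit. In ZR-75-30 all 4 subunits were called. SDHA, the flavoprotein that oxidises succinate, had 568, 583, 565 and 493 at LG and 683, 756, 738 and 675 at HG. It rose with no overlap, by 0.37 ± 0.055 (adjusted p = 1.95e-05). SDHB, the iron-sulfur subunit, had 301, 278, 301 and 280.2 at LG and 361, 350.4, 354 and 338 at HG, a rise of 0.27 ± 0.051. Of the membrane anchors, SDHD rose by 0.15 and SDHC fell by 0.12, both with overlapping ranges. HCC1500 had the opposite signs for the catalytic pair, -0.31 ± 0.049 for SDHA and -0.18 ± 0.064 for SDHB. There SDHB had 229.9, 252.5, 271.9 and 248.5 at LG and 236.6, 226.4 and 202.6 at HG, which overlap. The median log2 change over all genes of this line was -0.12, and -0.0021 under median-of-ratios scaling. SDHC fell in HCC1500 (-0.23), and SDHD was at -0.08 (adjusted p = 0.184). With HG3 the SDHB change was 0.10, and none of the 4 was called. In MDA-MB-175, SDHC fell by 0.27 and the others were not called, with changes of -0.03 (SDHA), 0.04 (SDHB) and -0.07 (SDHD).

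Several subunits come as isoforms of different tissues. COX4I2 and COX6A2 were not analysed here, COX7A1, the heart and muscle form, was listed at 0 in all but 1 culture, and NDUFA4L2, a form known from hypoxic cells, was at most 1.58 in MDA-MB-175 and 0.521 in ZR-75-30. In HCC1500 NDUFA4L2 had 6.46, 6.35, 4.6 and 6.03 at LG and 7.08, 4.48 and 8.31 at HG, overlapping (adjusted p = 0.72). Of their widely expressed partners, COX4I1 rose in ZR-75-30 (0.30) and fell in HCC1500 (-0.32), where it had 1583, 1702, 1656 and 1664 at LG and 1316, 1307 and 1331 at HG. COX7A2 rose in ZR-75-30 by 0.15, COX6A1 fell in HCC1500 by 0.12, and NDUFA4 fell by 0.17 in MDA-MB-175 and by 0.10 in HCC1500. The HCC1500 changes of COX6A1 and NDUFA4 turned positive, at 0.0029 and 0.023, under median-of-ratios scaling.

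Outside the 87 subunits, 13 rows matched the symbols. ATP5SL, which encodes a complex I assembly factor despite its symbol, was called higher in all 3 lines (0.22, 0.45 and 0.14). COX7A2L, a factor that joins complexes III and IV into supercomplexes, rose by 0.62 in ZR-75-30 and 0.17 in HCC1500 and changed by 0.12 in MDA-MB-175 (adjusted p = 0.0856). ATP5S fell in ZR-75-30 (-0.37) and HCC1500 (-0.39). These 3 were named after their values were seen. NDUFA7, NDUFB8 and UQCR11 each had a second gene ID, and reads split between the IDs make the values of these subunits uncertain.

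At LG the lines differed widely in some members. Deposited values summed to 5639413 to 5716906 per LG culture in HCC1500, 6023522 to 6302197 in MDA-MB-175 and 7225346 to 7323715 in ZR-75-30. The values per kb below were not divided by these totals, so differences between lines in them depend on the scaling. Per kilobase of transcript, the mitochondria-encoded complex IV genes had a median of 39938 normalized read counts per kb in HCC1500, 31660 in MDA-MB-175 and 51325 in ZR-75-30, and the nuclear-encoded ones 1706, 1648 and 2007. For complex I the medians in that order were 10134, 14219 and 14121 for mitochondrial and 361, 549 and 499.7 for nuclear genes. Between ZR-75-30 and MDA-MB-175, 38 of the 74 nuclear-encoded subunits were higher and 24 lower in ZR-75-30, where 71.7% of all genes differed. HCC1500 had 15 higher and 48 lower than MDA-MB-175 (79.1% of genes), and 17 higher and 45 lower than ZR-75-30 (78.5%). Under CPM these splits were 26 and 35, 20 and 39, and 31 and 33, so the balance turned between ZR-75-30 and MDA-MB-175, kept its direction between HCC1500 and MDA-MB-175, and came close to even between HCC1500 and ZR-75-30. Differences of at least 1 log2 unit were seen for 8, 13 and 21 nuclear-encoded subunits in these pairs, against 30.5%, 38.4% and 42.8% of genes averaging at least 10. For the 13 mitochondrial genes the splits were 5 higher and 4 lower, 5 and 7, and 0 and 9 (5 and 7, 5 and 6, and 3 and 4 under CPM).

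The levels and differences that follow are on the deposited scale, whose totals differ between lines, so small differences depend on the scaling. ATP5G1 differed most among nuclear subunits. Its mean at LG was 2083 ± 19.3 in ZR-75-30, 386 ± 28.1 in MDA-MB-175 and 128 ± 15.2 in HCC1500 (SD, n = 4 each), which is 16.3-fold higher in ZR-75-30 than in HCC1500. The log2 difference was 2.43 ± 0.067 between ZR-75-30 and MDA-MB-175 and -1.60 ± 0.067 between HCC1500 and MDA-MB-175. NDUFB9, an accessory subunit of complex I, had 2351 ± 147 in ZR-75-30, 722 ± 20.9 in MDA-MB-175 and 557 ± 27.2 in HCC1500. NDUFS6 was lowest in HCC1500, at 85.3 ± 4.58 against 306 ± 23.4 and 468 ± 45.6. In the other direction ATP5J, a stalk subunit of complex V, had 169 ± 7.33 in ZR-75-30 against 717 ± 28.7 in MDA-MB-175 and 492 ± 20.3 in HCC1500, and NDUFC2 had 292 ± 17.7 against 1126 ± 87.2 and 736 ± 14.9. HCC1500 was highest for ATP5A1, the alpha subunit of the catalytic head of complex V, at 3967 ± 79.7 against 2194 ± 26.7 in MDA-MB-175 and 2257 ± 42.6 in ZR-75-30, where the latter pair was not called (log2 difference 0.04 ± 0.029). NDUFV2 followed with 654 ± 34.2, 483 ± 19.9 and 369 ± 19.7 in HCC1500, ZR-75-30 and MDA-MB-175. Of the mitochondrial genes MT-CO1 had 114411 ± 3817 in ZR-75-30, 63982 ± 2527 in HCC1500 and 48820.0 ± 3214 in MDA-MB-175, and MT-ND3 had 2143 ± 134 in HCC1500, 7260.2 ± 435 in MDA-MB-175 and 5119 ± 379 in ZR-75-30.

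The other genes of the pathway come from lists chosen with earlier results of these data known. In HCC1500 without HG3, 21 of their 119 genes were called higher and 46 lower (17.6% and 38.7%), close to the shares of all genes, 20.6% and 37.0%, and with HG3 in the fit 9 and 4 were, among them YY1 and TFAM (higher) and KIAA0391, NUBPL and SUCLG2 (lower). The list counts that follow are to be read against the shares of all genes called higher and lower, which were 11.9% and 13.7% in MDA-MB-175, 23.4% and 22.7% among ZR-75-30 and those just given among HCC1500 cultures. Of 12 regulators of genes for mitochondrial proteins 6 rose and 0 fell in MDA-MB-175, 6 rose and 3 fell in ZR-75-30, and 4 rose and 1 fell in HCC1500, with medians of 0.17, 0.21 and 0.14 on the log2 scale. PPARGC1A, the coactivator PGC-1 alpha, had 16.5 ± 3.67 at LG and 34 ± 2.09 at HG in MDA-MB-175 (log2 change 1.02 ± 0.17), and 49.3 ± 11.1 and 164 ± 25.2 in ZR-75-30 (1.73 ± 0.14, adjusted p = 1.20e-08). Mitochondrial messages rose in MDA-MB-175 and fell in ZR-75-30, and a link between them and PPARGC1A was not tested. In HCC1500, where the PPARGC1A values lay near the floor, this gene was not called. YY1, a factor that binds many respiratory promoters, rose by 0.16 in MDA-MB-175, 0.33 among ZR-75-30 and 0.73 among HCC1500 cultures, and ESRRG, an estrogen-related receptor, fell by 0.64 in ZR-75-30 and 0.31 in HCC1500.

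TFAM, which packages the mitochondrial genome and starts its transcription, changed by -0.08 ± 0.062 in MDA-MB-175 (adjusted p = 0.4), fell by 0.26 in ZR-75-30 and rose by 0.30 in HCC1500. POLRMT, the mitochondrial RNA polymerase, rose by 0.26 in ZR-75-30 with overlapping ranges and was not called in the other lines (-0.04 and -0.10). Among 22 genes of mitochondrial transcription, replication and RNA handling, 0 rose and 4 fell in MDA-MB-175, 3 rose and 6 fell in ZR-75-30, and 9 rose and 7 fell in HCC1500, with medians of -0.05, -0.09 and 0.06. HSD17B10 and KIAA0391, which with another protein form the enzyme that cuts tRNAs out of the precursor, fell in each line, by 0.33, 0.59 and 0.17 for HSD17B10 and by 0.15, 0.57 and 0.73 for KIAA0391. LRPPRC, which stabilises mitochondrial messages, rose by 0.43 in ZR-75-30 and 0.24 in HCC1500, and C10orf2, the mitochondrial helicase, by 0.84 in HCC1500.

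Of 14 assembly factors of complex I, 0 rose and 1 fell in MDA-MB-175 (ACAD9, -0.21), 1 rose and 4 fell in ZR-75-30 (ECSIT, 0.79, and NDUFAF6, -0.39, among them), and 1 rose and 7 fell in HCC1500 (TMEM126B, 0.28, and NUBPL, -0.82). Their medians were -0.07, -0.10 and -0.20 on the log2 scale. The 30 assembly factors of complexes II to V had 1 and 6, 2 and 11, and 3 and 8 calls higher and lower in the same order, with COA6 (0.32), PET117 (0.38) and COX19 (0.61) as the largest rises and C7orf55 (-0.81), BCS1L (-0.61) and PET100 (-0.91) as the largest falls, and medians of -0.11, -0.09 and -0.05. Electron carriers and ubiquinone synthesis, 17 genes, had 2 and 5, 0 and 5, and 1 and 8, with medians of -0.07, -0.06 and -0.23. There COQ2, an enzyme of ubiquinone synthesis, fell from 74 ± 3.66 to 30.7 ± 6.51 in ZR-75-30 (-1.27 ± 0.15, adjusted p = 1.11e-06), PDSS1 fell by 0.51 in MDA-MB-175 and COQ6 by 0.72 in HCC1500. ETFDH rose by 0.16 in MDA-MB-175. CYCS, cytochrome c, rose in HCC1500 by 0.28 and was not called elsewhere (0.02 and -0.05).

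The 13 genes of the tricarboxylic acid cycle had 2 rises and 9 falls in HCC1500, 1 and 3 in MDA-MB-175, and 5 and 3 in ZR-75-30, with medians of -0.17, -0.08 and 0.02. Of all genes, 20.6% were higher and 37.0% lower in HCC1500, 11.9% and 13.7% in MDA-MB-175, and 23.4% and 22.7% in ZR-75-30. OGDH, of the oxoglutarate dehydrogenase complex, rose in MDA-MB-175, where its means were 704 ± 56.4 and 1036 ± 35.8, and in ZR-75-30, where they were 786 ± 58.1 and 1293 ± 55.8 (0.56 and 0.72), and SUCLA2 rose by 0.29 in HCC1500. SUCLG1 fell by 0.26 in MDA-MB-175, DLD by 0.22 in ZR-75-30 and SUCLG2 by 0.56 in HCC1500. Of the adenine nucleotide and phosphate carriers with the pores and the ATP synthase inhibitor, 1 of 8 rose and 3 fell in MDA-MB-175, 5 and 1 in ZR-75-30, and 0 and 5 of 7 in HCC1500, with medians of -0.10, 0.25 and -0.12. SLC25A6, which exchanges ADP for ATP across the inner membrane, rose by 0.30 and 0.72 in MDA-MB-175 and ZR-75-30. VDAC3, a pore of the outer membrane, fell in each line (-0.33, -0.45 and -0.66). Of 4 further subunits that the symbols do not catch, CYC1, the cytochrome c1 of complex III, rose by 0.40 in ZR-75-30 and 0.24 in HCC1500, and C14orf2, of complex V, fell by 0.23 in MDA-MB-175 and 0.22 in HCC1500.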

How the data were processed

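RNA from 24 cultures of 3 ER+ breast cancer lines was sequenced on an Illumina HiSeq. Per the study's methods, the authors used Trimmomatic, TopHat with hg19 and Ensembl genes, DESeq2 for testing and edgeR for CPM with TMM normalization after a filter on low CPM. The submitters' processing notes name edgeR and hg38, so the build of the counts is not settled. The table as deposited holds a normalized signal for every gene and culture. Within a culture all values were multiples of a single step (100% whole within 0.01), so reads could be recovered, and the values summed to 5559394 to 7594840 per culture rather than near the total of CPM, so the authors' scaling factor was not identified. The recovered reads came to 9140024 to 17998819 per culture.

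Lines were fitted separately, each on its own cultures, with limma's moderated test with trend (limma 3.58.1, R 4.3.3) on log2(value + 1) and no covariate. Genes entered if as many cultures as the smaller group has reached 0.5. Adding 1 understates changes of weak genes. HCC1500 was fitted without HG3. A joint limma model of 6 group means on 23 cultures gave the differences between lines at LG and an F test of the interaction. A gene was called at a Benjamini-Hochberg adjusted p under 0.05, over all genes tested. The planned tests had assumed CPM, and the test on log2 values was kept. The script was tested on simulated data.

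Alternatives changed the pseudocount, the filter, the scaling (median-of-ratios, CPM, reads of other genes), the tool (edgeR 4.0.16 and DESeq2 1.42.0 on the recovered reads), removed a trend with length and GC content, used a replicate block or a single fit over all lines, required a change over 0.3, added HG3, or left out each culture in turn. Replicate numbers in the titles are shared by the groups. Deviations of same-numbered cultures correlated by 0.018 on average in HCC1500, 0.036 in MDA-MB-175 and 0.012 in ZR-75-30 (0.11 at most). The numbers were therefore not treated as pairs in the main fits, although such correlations cannot exclude pairing.

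The members, the gene lists and the rule for named genes were chosen with earlier results of these data known. The rule named every mitochondria-encoded member, per line the 3 nuclear-encoded subunits with the largest rises and the 3 with the largest falls among those called without overlap, up to 3 per direction called alike in all lines, up to 3 with opposite calls and the smallest interaction p, complex II, isoform pairs, for each pair of lines the 2 nuclear-encoded subunits highest and lowest against each other at LG, and TFAM, POLRMT, PPARGC1A, CYCS and the largest called rise and fall of each list of other pathway genes. COX7B and the genes listed without values were added after their values were seen. Gene positions and transcript lengths are from GENCODE release 44 on GRCh37, which matched 96.3% of the gene IDs, and promoters are from RefSeq on GRCh38.p14. The list of mitochondrial ribosomal RNAs had no row to test.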

Additional observations from a re-analysis of the deposited data

Results flagged for a closer look

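HCC1500 HG3 lay far from the other HG cultures of its line, by Dixon's ratio (the gap to the nearest culture over the range of the group), in 32 of 48 measures. These were the summed nuclear share and the values of 31 of the named members.

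Apart from HG3, the highest or lowest culture of a group stood apart by this ratio in 12 of the 288 groups of 4 cultures tested. The 288 include the 48 groups of HCC1500 at HG, where HG3 was flagged in 32 and where the MT-ATP8 flag below lies. Chance flags about 1 in 20, which is 12 of the other 240 groups. Among the mitochondria-encoded genes the ratio was 0.869 for MT-CYB in HCC1500 LG1 (highest) and 0.928 for MT-ATP8 in HCC1500 HG4 (highest). In ZR-75-30 LG4, NDUFB11 (0.878) and NDUFV1 (0.834) were lowest and NDUFS6 (0.881) and UQCRC2 (0.973) highest of the LG cultures. LG4 of ZR-75-30 had the fewest reads of that line, 9463981. NDUFB2 (0.891) and COX4I1 (0.847) were lowest in ZR-75-30 HG4, and ATP5E (0.863) was highest in ZR-75-30 HG1. NDUFC2 was lowest in MDA-MB-175 LG4 (0.848), UQCRC2 highest in HCC1500 LG3 (0.911) and ATP5G2 lowest in HCC1500 LG1 (0.836).

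The change from LG to HG differed between lines for 13 of 13 mitochondria-encoded and 47 of 74 nuclear-encoded subunits by limma's F test of the interaction. Among the nuclear-encoded subunits with calls of opposite sign in a pair of lines the smallest adjusted p-values were 5.35e-09 for NDUFV1, 3.22e-08 for ATP5G2 and 4.08e-07 for NDUFB5.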

How the results depend on the processing

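Over settings that left out no replicate, 2255 of 2475 values of named genes kept their direction and their side of the threshold, 149 were no longer called, 43 became called and 28 reversed. Leaving out a replicate reversed 0 of 1608. The cause of these changes was not tested, apart from the stricter threshold and HG3 itself. Depths of LG and HG cultures do not overlap in HCC1500, and genes under the floor of 3 reads cannot be compared.

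Requiring a change over 0.3 left 11 nuclear-encoded calls in MDA-MB-175, 29 in HCC1500 and 9 in ZR-75-30, and 3 mitochondria-encoded calls in HCC1500. No share of all genes was computed under this threshold. The same holds for the other alternatives, apart from HG against LG in HCC1500 with median-of-ratios scaling or with HG3. With HG3, HCC1500 had 2 mitochondria-encoded and 1 nuclear-encoded calls, the change of 3 nuclear-encoded subunits differed between lines, and, through the shared estimate of spread, 37 nuclear-encoded subunits differed at LG between ZR-75-30 and MDA-MB-175 and 38 between HCC1500 and MDA-MB-175. A single fit over all lines called 6 mitochondria-encoded subunits in HCC1500. The median log2 change in HCC1500 under median-of-ratios scaling was 0.31 for mitochondria-encoded and -0.10 for nuclear-encoded subunits. The nuclear-encoded median was -0.075 with the length and GC trend removed and 0.071 with HG3, and in ZR-75-30 it was -0.013 when scaled to the reads of other genes. The mitochondria-encoded median of HCC1500 was 0.090 without HG4.

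Leaving out a replicate gave 52 to 57 nuclear-encoded calls in HCC1500, 22 to 46 in MDA-MB-175 and 31 to 43 in ZR-75-30, with 9 to 11, 12 and 9 to 12 mitochondria-encoded calls.

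In HCC1500, log2 changes that turned positive with HG3 were MT-CO2 0.052, MT-CYB 0.023, MT-CO1 0.012, MT-CO3 0.0030, NDUFV2 0.033, COX6A1 0.23, SDHB 0.10, COX4I1 0.056, NDUFA4 0.26, NDUFB9 0.22, NDUFC2 0.22 and C14orf2 0.12. Under median-of-ratios scaling MT-CYB was 0.0065, MT-CO1 0.028, COX6A1 0.0029 and NDUFA4 0.023. With edgeR MT-CO1 was 0.011 and NDUFA4 0.0058, and with DESeq2 MT-CYB was 0.0023, MT-CO1 0.024 and NDUFA4 0.019. With the length and GC trend removed, MT-CYB was 0.030, MT-CO1 0.049, COX6A1 0.014, NDUFB9 0.0091, NDUFB11 0.20 and POLRMT 0.24, and COX4I1 in MDA-MB-175 was 0.072.

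Whether same-numbered cultures were handled together is not stated. The replicate block gave 11 mitochondria-encoded and 52 nuclear-encoded calls in HCC1500, 12 and 41 in MDA-MB-175, and 12 and 41 in ZR-75-30.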
